A study of Mus musculus with 8 samples.

Results

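The subject is the osteoclastogenic axis of the mouse ankle joint, which is the set of 7 genes for RANKL (Tnfsf11), its decoy receptor osteoprotegerin or OPG (Tnfrsf11b), its receptor RANK (Tnfrsf11a), the adaptor Traf6, the cytokines Csf1 and Il34, and their shared receptor Csf1r. The members are the probe sets, each a group of array probes for one transcript, that the platform annotation assigns to one of these genes alone, which gave 19 of the 45101 probe sets on the array and 7 of its 18194 named genes. Gene expression was measured on 8 single-colour Affymetrix arrays of whole ankle joint from mice aged 5 months. The wild-type group has 2 arrays, labelled with normal TNFα and normal sphingosine kinase 1 (Sphk1) activity. The hTNF group has 3 arrays from mice with a transgene that overexpresses human TNFα, with normal Sphk1 activity. The third group has 3 arrays from mice with the same transgene that are labelled functionally null for Sphk1, the kinase that makes sphingosine 1-phosphate. The promoter of the transgene, the Sphk1 allele, the strain and the sex of the mice are not given in the sources used here. Each label speaks of 1 mouse, and nothing says whether the mice of a group were littermates or were processed together, so the p-values below describe the array-to-array spread alone, and part of it may be technical.

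Osteoclasts, the cells that resorb bone, arise from precursors of the monocyte and macrophage lineage. CSF1, made by stromal cells, osteoblasts and other cells, keeps these precursors alive through the receptor CSF1R, for which IL-34 is a second and separately encoded ligand. RANKL, carried by osteoblast-lineage cells, synovial fibroblasts and T cells, engages RANK on the precursor, and RANK signals through TRAF6 to NF-κB and NFATc1. OPG is a soluble receptor that captures RANKL and keeps it from RANK, so the balance of RANKL to OPG is widely used as a measure of the drive to resorb bone. In inflammatory arthritis this axis is known for its part in bone erosion at the joint.

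Values are the log2 expression that the authors deposited, so a difference of 1 is a 2-fold change of summarised brightness. Differences are given with their standard error (SE), and a probe set counts as changed where its limma p, adjusted by Benjamini-Hochberg over all tested probe sets, is under 0.05. A probe set was tested if 2 or more arrays read above 6.87, the median over all values. The level differs between probe sets of a gene for technical reasons, so only differences between groups are compared across genes. In whole tissue, more cells of a type and more RNA per cell cannot be told apart.

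Some differences between the arrays limit what can be read from the labels. The Sphk1 probe set read 7.16 and 7.25 in wild type, 8.28 to 8.65 in hTNF and 9.94 to 10.22 on the arrays labelled Sphk1 null. The level thus does not check the null label, since the sources do not say which stretch of the gene was disrupted, and every direction drawn from that label carries this limit. In each group 1 array had both Xist above 10 and the Y-linked Eif2s3y above 6. Whether RNA of both sexes was pooled there is not stated in the sources. Some results for members are given below with and without these 3 arrays. Of the rest, wild-type replicate 1 and hTNF replicate 2 had Eif2s3y at 8.86 and 8.75 and Xist at 7.45 and 7.29. Replicate 3 of hTNF and replicates 2 and 3 of the arrays labelled null had Xist at 12.89 to 13.16 and Eif2s3y at 3.46 to 3.81. Leaving out the 3 arrays thus leaves 1 wild-type array, with the sex-linked signals not balanced over the groups. The mean of 15 skin and keratinocyte genes ranged from 6.47 to 11.35 over the hTNF arrays, and that of 12 neutrophil precursor genes was 7.61 and 10.9 on the wild-type arrays.

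Promoters are shown for 3 genes, the ligand Tnfsf11, which did not pass the test in hTNF, and the higher Tnfrsf11a and Csf1. Each is given as the 250 bases before the start site in RefSeq, build GRCm38.p6. RefSeq promoters were matched for these and Traf6, 4 of the 7 genes, and not for Tnfrsf11b, Il34 or Csf1r. They were searched on both strands for the NF-κB consensus, for TGANTCA (AP-1), for TATAAA (the TATA box) and for GGGCGG (GC box), with no overlaps between different motifs in the windows shown. Capitals mark 1 kind of match per gene.
Csf1, minus strand, chr3:107760470-107760719, capitals the NF-κB match: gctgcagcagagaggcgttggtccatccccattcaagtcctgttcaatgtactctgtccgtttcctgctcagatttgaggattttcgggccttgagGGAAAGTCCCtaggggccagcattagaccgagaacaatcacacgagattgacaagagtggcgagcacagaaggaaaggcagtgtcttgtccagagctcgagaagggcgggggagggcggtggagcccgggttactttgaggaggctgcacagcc
Tnfrsf11a, plus strand, chr1:105780473-105780722, capitals the matches to GGGCGG: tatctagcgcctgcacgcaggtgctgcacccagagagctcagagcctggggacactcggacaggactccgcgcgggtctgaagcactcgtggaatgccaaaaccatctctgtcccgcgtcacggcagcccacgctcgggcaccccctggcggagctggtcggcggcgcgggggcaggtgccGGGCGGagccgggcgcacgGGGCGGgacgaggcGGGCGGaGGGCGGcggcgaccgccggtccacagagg
Tnfsf11, minus strand, chr14:78308044-78308293, capitals the match to TATAAA: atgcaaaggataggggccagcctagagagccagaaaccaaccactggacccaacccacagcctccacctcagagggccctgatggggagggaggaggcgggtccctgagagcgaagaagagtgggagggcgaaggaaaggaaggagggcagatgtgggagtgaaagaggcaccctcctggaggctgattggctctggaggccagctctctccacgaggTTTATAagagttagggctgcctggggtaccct
Csf1 holds GGAAAGTCCC, which reads GGGACTTTCC on the other strand, from 154 to 145 bases before the start. The consensus is met in 7.25% of 32851 promoters of this length, and in none of the other 3 matched members. Csf1 also holds 2 GC boxes, not capitalised. Tnfrsf11a holds 4 GC boxes, a motif found in 32.7% of promoters. Tnfsf11 holds TTTATA, the reverse complement of TATAAA, from 32 to 27 bases before the start, and 12.4% of promoters hold it in either orientation. The AP-1 motif, present in 6.75% of promoters, was not found in these windows. A match is a description of the sequence and does not show that a factor binds there.

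hTNF joints had less OPG transcript, more RANK, CSF1, IL-34 and CSF1R transcript, and a RANKL level that did not differ detectably from wild type. In a fit of all 19 member probe sets together with all others and no filter, limma called 9 higher and 2 lower against wild type. The background was 8.56% higher and 9.12% lower among 45037 probe sets. In the filtered fit, used below, 15 of the 19 were tested, with 9 higher and 2 lower, and of 24115 tested probe sets 33.0% were called, 16.6% higher and 16.4% lower. The count was 8 higher and 2 lower without the 3 arrays with both sex-linked signals, 9 and 2 with the skin markers as a covariate, and 9 and 2 with the neutrophil precursor markers as a covariate. The plot of levels by group shows all 19 probe sets.

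**Figure D1:**
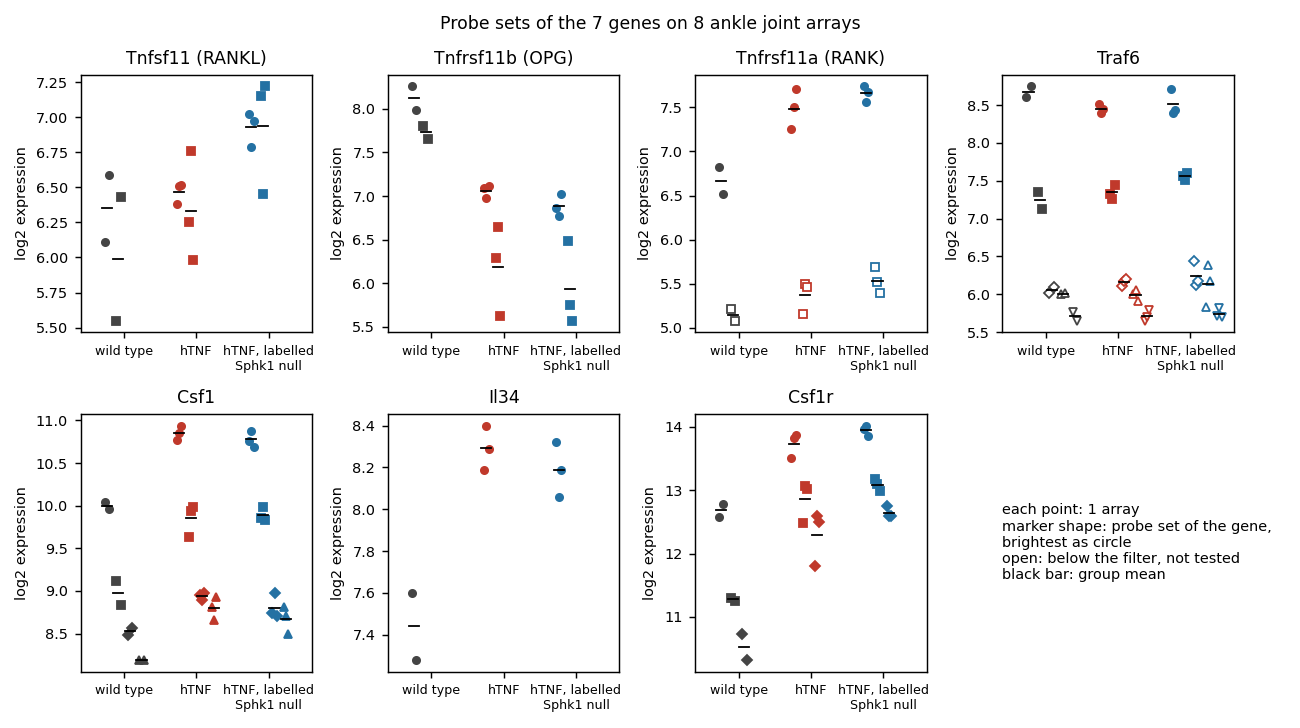
Log2 expression of the 19 probe sets of the 7 genes by group; each point is 1 array, the marker shape is the probe set (circle for the brightest), open markers were below the filter and not tested, and black bars are group means. Tnfrsf11b lay lower, and Tnfrsf11a, Csf1, Il34 and Csf1r higher, on all 6 transgenic arrays than on both wild-type arrays in their brightest probe set, while Tnfsf11 overlapped between hTNF and wild type.

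RANKL transcript read below 6.87 on every wild-type and hTNF array. The brighter Tnfsf11 probe set (1451944_a_at) read 6.11 and 6.59 in wild type, 6.38, 6.51 and 6.52 in hTNF, and 7.02, 6.79 and 6.97 on the arrays labelled Sphk1 null. The hTNF values lay between the 2 wild-type values, and the difference was 0.12 ± 0.17 (SE; 95% interval -0.27 to 0.51; limma adjusted p = 0.658). The second probe set (1419083_at) read 5.55 and 6.43 in wild type, 6.25, 6.76 and 5.98 in hTNF, and 7.15, 6.45 and 7.22 on the arrays labelled null. Its groups overlapped between hTNF and wild type too (0.34 ± 0.34; limma adjusted p = 0.495). Without wild-type replicate 1, the lower of the wild-type pair in both probe sets, the 2 differences were -0.12 and -0.1. Without wild-type replicate 2 they were 0.36 and 0.78. Both probe sets passed the filter only through 2 arrays labelled null.

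OPG, the decoy receptor, fell. The brighter Tnfrsf11b probe set (1418309_at) read 8.26 and 7.99 in wild type against 7.09, 6.98 and 7.11 in hTNF, and 6.86, 6.77 and 7.02 on the arrays labelled null. Every transgenic array lay below both wild-type arrays. The difference in hTNF was -1.065 ± 0.14, or 2.09-fold lower (limma adjusted p = 0.00051), and in the 18 alternative settings that tested it, it lay between -1.215 and -0.91 and was called in each. The second probe set (1449033_at) read 7.8 and 7.66 in wild type and 5.62 to 6.65 over the 3 hTNF arrays, a difference of -1.54 ± 0.33 (limma adjusted p = 0.00627). It passed the filter only through the wild-type arrays. Without the filter its adjusted p was 0.00773, and without wild-type replicate 1 the difference was -1.47 and the call ended (limma adjusted p = 0.0518).

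The balance of RANKL to OPG is the log2 brightness of Tnfsf11 minus that of Tnfrsf11b, brightest probe sets, set to 0 at the wild-type mean. It was -0.375 and 0.375 on the wild-type arrays, 1.065, 1.305 and 1.185 on the hTNF arrays, and 1.935, 1.795 and 1.725 on those labelled null. The 3 groups did not overlap, in the order wild type, hTNF, labelled null. The mean of hTNF was 1.19 ± 0.12 (SD, n = 3), a 2.27-fold shift of the ratio, and that of the arrays labelled null was 1.82 ± 0.11 (SD, n = 3), a 3.53-fold shift. As a score over members it carries no test. In hTNF, 1.065 of it is the fall of Tnfrsf11b and 0.12 the difference of Tnfsf11. On the arrays labelled null Tnfrsf11b differed from wild type by -1.24 and Tnfsf11 by 0.58. The step of 0.633 from hTNF to labelled null holds 0.457 from Tnfsf11, which was not called (limma adjusted p = 0.611). That probe set passed the filter only through 2 arrays labelled null. The wild-type pair differed by 0.75, and the hTNF shift was 0.81 without wild-type replicate 1 and 1.56 without replicate 2.

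**Figure D2:**
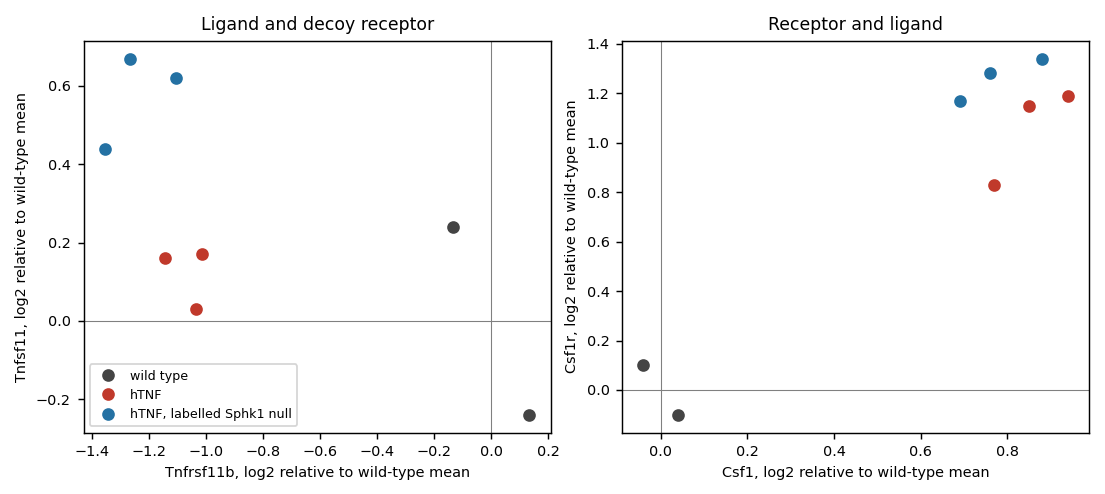
Brightest probe sets, each axis in log2 relative to the wild-type mean, 1 point per array: Tnfsf11 (RANKL) against Tnfrsf11b (OPG) on the left, and Csf1r against Csf1 on the right. On the left the hTNF arrays lie to the left of wild type and between its 2 heights, and the arrays labelled Sphk1 null lie further up; on the right all 6 transgenic arrays lie together at the upper right.

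RANK, the receptor on osteoclast precursors, rose. The brighter Tnfrsf11a probe set (1419214_at) read 6.82 and 6.52 in wild type, 7.25, 7.5 and 7.71 in hTNF, and 7.74, 7.56 and 7.68 on the arrays labelled null. The hTNF and wild-type groups did not overlap, as in 61.5% of all tested probe sets, and the rise was 0.82 ± 0.16 (1.76-fold; limma adjusted p = 0.00463). It passed the filter only through the transgenic arrays, since both wild-type values lay below 6.87. Without the filter its adjusted p was 0.00696, and it was called under all 18 settings in which it was tested, at 0.66 to 0.97. The second probe set (1430259_at) read 5.08 to 5.69 over the 8 arrays, below the filter, and differed by 0.23 ± 0.15 in a fit without the filter (limma adjusted p = 0.389).

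Traf6, the adaptor that couples RANK to NF-κB, did not pass the test in any probe set. The brightest (1435350_at) read 8.61 and 8.75 in wild type and 8.52, 8.39 and 8.45 in hTNF, which did not overlap, and the difference was -0.23 ± 0.13 (95% interval -0.52 to 0.07; limma adjusted p = 0.22). The next (1421376_at) had the opposite sign, with 7.35 and 7.13 in wild type, 7.33, 7.26 and 7.45 in hTNF and a difference of 0.11 ± 0.13 (limma adjusted p = 0.579). The other 3 probe sets of the gene lay below 6.87 on all 8 arrays, between 5.65 and 6.44, and were not tested.

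CSF1, the ligand that sustains monocyte-lineage cells, rose in all 4 of its probe sets. The brightest (1460220_a_at) read 10.04 and 9.96 in wild type, 10.77, 10.85 and 10.94 in hTNF, and 10.76, 10.88 and 10.69 on the arrays labelled null. The gap between the groups was wider than the spread within them, and the rise in hTNF was 0.85 ± 0.10 (1.81-fold; limma adjusted p = 0.000314). The second (1448914_a_at) rose by 0.88 ± 0.14, and the x_at probe set 1425155, which may take up related transcripts, by 0.61 ± 0.13. The fourth (1425154_a_at) rose by 0.41 ± 0.12, the smallest of the 4 (limma adjusted p = 0.023), and lost its call in 7 of 19 settings: without either wild-type array, without any 1 of the 3 hTNF arrays, without the arrays with both sex-linked signals, and with the replicate number as a block (adjusted p = 0.0605 there). These losses reached an adjusted p of 0.144, without wild-type replicate 1.

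IL-34, the other CSF1R ligand, rose by a like amount. Its single probe set (1431920_a_at) read 7.6 and 7.28 in wild type, 8.19, 8.4 and 8.29 in hTNF, and 8.32, 8.06 and 8.19 on the arrays labelled null. All 6 transgenic arrays lay above both wild-type arrays, and the rise in hTNF was 0.85 ± 0.14 (1.81-fold; limma adjusted p = 0.00163). The difference between Il34 and its co-ligand Csf1, set to 0 at the wild-type mean, ranged from -0.09 to 0.11 over the hTNF arrays, within the wild-type spread of -0.12 to 0.12.

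CSF1R, the receptor of both, had the widest rise of the 7 genes in hTNF by its probe sets 1423593_a_at and 1419873_s_at. The first read 10.73 and 10.32 in wild type, 11.8, 12.59 and 12.5 in hTNF, and 12.75, 12.59 and 12.59 on the arrays labelled null, with a rise in hTNF of 1.77 ± 0.22 (3.41-fold; limma adjusted p = 0.000376). The second rose from 11.3 and 11.25 to 12.48, 13.06 and 13.02 (1.58 ± 0.16, 2.99-fold; limma adjusted p = 0.000136). The brightest (1419872_at) read 12.58 and 12.78 in wild type and 13.51, 13.83 and 13.87 in hTNF. Its rise of 1.06 ± 0.11 (2.08-fold; limma adjusted p = 0.000207) was the smallest of the 3 and lay near the top of the scale, where the highest values of any probe set were 14.6 to 14.99. In all 3 probe sets hTNF replicate 1 was the lowest transgenic array.

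**Figure D3:**
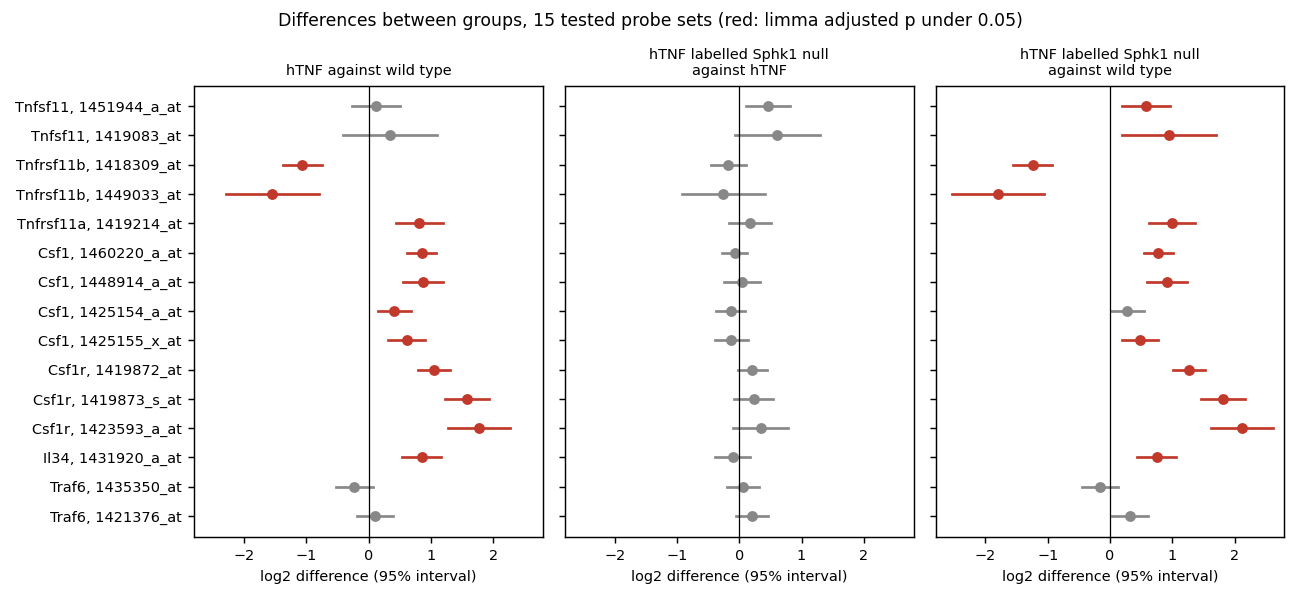
Log2 difference with its 95% interval for the 15 tested probe sets in the 3 comparisons (points, limma estimate; red, adjusted p under 0.05; grey, not called). In the outer panels Tnfrsf11b lies left of 0 and Tnfrsf11a, Csf1, Il34 and Csf1r right of 0; in the middle panel, which sets the transgenic groups against each other, no point is red.

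Marker lists of the cells that carry or make these proteins differed in how many genes were called. The macrophage and monocyte list rose in 14 of 16 genes in hTNF, and its mean went from 9.71 and 9.77 in wild type to 11.27, 11.5 and 11.53; the median of its differences was 1.91. For the 12362 genes represented by their brightest tested probe set, the median difference was -0.02, and 16.5% were called higher and 19.6% lower. Csf1r and Tnfrsf11a belong to this lineage, and the part of more macrophages in their rise was not tested. Osteoclast markers rose in 5 of 6, with Calcr, the calcitonin receptor, below the filter, and the wild-type arrays differed in them, at a mean of 8.26 and 9.26 against 10.1 to 10.46 in hTNF. Of lists that include sources of RANKL, osteoblast and osteocyte genes had 2 higher (Col1a1 and Pdpn) and 3 lower (Mepe, Sost and Phex) of 9. Dmp1 of that list was not called (-0.37; limma adjusted p = 0.232), and Pdpn is also counted in the fibroblast list below. T and NK cell genes, another such list, had 2 higher (Cd2 and Cd4) of 7. Synovial and connective tissue fibroblast genes, of cells that also make CSF1, rose in 7 of 11 and fell in 1 (Clic5), with a mean of 12.13 and 12.16 in wild type and 12.69 to 12.72 in hTNF. Chondrocyte genes fell in 6 of 9 and rose in 1 (Col11a1), and endothelial genes fell in 9 of 9. Skeletal muscle genes fell in 11 of 12 (median -0.98), adipocyte genes in 8 of 8 (median -1.94) and mast cell genes in 3 of 3. B and plasma cell genes had 1 higher (Xbp1) of 8 and none lower. On the arrays labelled null against wild type, 7 of 9 chondrocyte and 4 of 9 endothelial genes were lower, as were 20.2% of all tested probe sets. Tnfrsf11b differed by -1.24 there. The part of any of these cells in the fall of Tnfrsf11b was not tested.

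**Figure D4:**
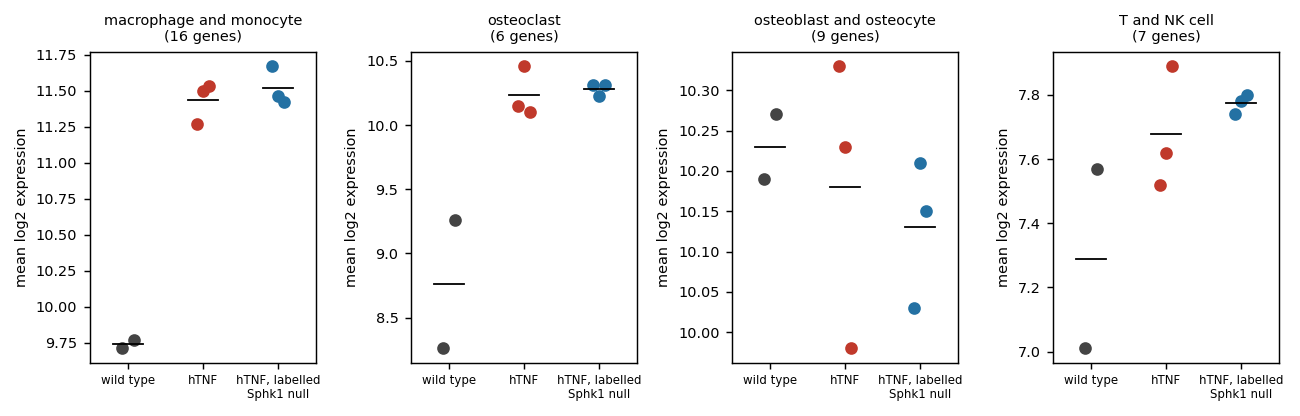
Mean log2 expression of 4 marker lists on each array, by group, with the group mean as a black bar and the number of tested genes above each panel. The macrophage and osteoclast means of all transgenic arrays lie above both wild-type arrays, the osteoblast and osteocyte means overlap, and in the T and NK cell list hTNF replicate 1 lies below wild-type replicate 2.

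Of 22 tested adaptors, kinases, NF-κB subunits and inhibitors listed as downstream of RANK, 11 rose and 1 fell in hTNF (median 0.32). Among the rises is that of the NF-κB inhibitor Nfkbia (1.26 ± 0.10). The background for this list and those below is the 16.5% of all genes called higher and 19.6% called lower. Whether RANK or another receptor lies behind these changes was not tested. The adaptor Traf1 rose by 2.54 ± 0.24, the deubiquitinase and NF-κB brake Tnfaip3 by 2.5 ± 0.20, and the subunits Relb and Nfkb2 by 1.95 ± 0.20 and 1.36 ± 0.16. The kinase Map3k14 (NIK), which starts the signal for Nfkb2 processing, rose by 0.76 ± 0.13, Src by 1.29 ± 0.17 and the IKK subunit Ikbkb by 0.65. The subunit Rela rose by 0.55 ± 0.14, a call lost without wild-type replicate 2 (0.42; limma adjusted p = 0.107), and the deubiquitinase Cyld differed by 0.08 (limma adjusted p = 0.743). The p38 activator Map2k6 fell by 0.82 on the log2 scale, and its call was lost without wild-type replicate 1 (-0.60; limma adjusted p = 0.0527). The count of falls was 2 without wild-type replicate 2. Traf5 rose by 0.38 ± 0.12, a call lost with the replicate block (limma adjusted p = 0.0928) and without any 1 hTNF array. Traf2 rose by 0.63 ± 0.16, and by 0.56 without wild-type replicate 1, where it was not called. The TAK1 kinase Map3k7, which acts just below Traf6, differed by -0.13 ± 0.12 (limma adjusted p = 0.474). Of 11 genes of ITAM co-stimulation, through which RANK is known to induce NFATc1 and which myeloid cells express broadly, 9 rose and none fell (median 1.12), beside the macrophage list described above. Sirpb1a rose by 2.97 ± 0.23, Trem2 by 1.78 ± 0.15, and the adaptors Tyrobp (DAP12) and Fcer1g by 1.60 ± 0.17 and 1.57 ± 0.13. The receptor Oscar differed by 0.44 ± 0.21 (limma adjusted p = 0.149).

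Transcription factors of the osteoclast lineage rose in 8 of 11 genes and fell in none (median 0.76). Of these, Fos (0.78 ± 0.26; limma adjusted p = 0.0482) lost its call with the replicate block (0.0869). It also lost it without either wild-type array, hTNF replicate 2 or 3, or null replicate 1 or 2. Fosl1 rose by 0.59 ± 0.14, and by 0.46 without wild-type replicate 2, where it was not called. Tfec rose by 2.0 ± 0.26, Spi1 (PU.1, which drives Csf1r and Tnfrsf11a in this lineage) by 1.92 ± 0.19, Prdm1, a repressor of osteoclast inhibitors, by 1.45 ± 0.24, and Junb by 1.30 ± 0.19. Nfatc1, the factor that RANKL induces, differed by -0.06 ± 0.12 (limma adjusted p = 0.772). With a filter that asks for a value above the median on all 8 arrays, 5 of the 8 genes still tested rose; Fosl1, Tfec and Prdm1 were not tested there. The brakes on this program moved in both directions, 3 up and 3 down of 8: Irf8 (0.73 ± 0.19), Rbpj (0.72 ± 0.12) and Id2 (0.68 ± 0.18) rose, and Bcl6 (-0.71 ± 0.16), Id1 (-0.71 ± 0.11) and Id3 (-0.30 ± 0.10) fell. Without wild-type replicate 1, 1 of these 8 rose and 1 fell, with the calls of Irf8, Id2, Bcl6 and Id3 lost. Without hTNF replicate 3 those of Irf8, Id2 and Id3 were lost. That of Id3 was also lost without wild-type replicate 2, hTNF replicate 1 or 2 or null replicate 3, and with the replicate block (limma adjusted p = 0.145). Osteoclast effectors, a list that includes all tested osteoclast markers given above, rose in 11 of 13 and fell in none (median 1.31). They were led by Dcstamp, needed for cell fusion (2.04 ± 0.18), Mmp9 (1.95 ± 0.53), the collagenolytic protease Ctsk (1.64 ± 0.23) and Acp5 (1.61 ± 0.43). That count was 6 without wild-type replicate 1, the array on which this list was low, and 1 gene fell with the replicate block and 1 without null replicate 3. Mmp9 read 8.62 and 10.93 in wild type and Acp5 9.59 and 11.41. Without wild-type replicate 1 their differences were 0.79 and 0.70 (limma adjusted p = 0.0776 and 0.0943), and without replicate 2 they were 3.1 and 2.52. Both calls were also lost without hTNF replicate 2 (limma adjusted p = 0.0563 and 0.0523).

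Upstream of the axis, 14 of 19 tested signals and receptors known to induce RANKL rose in hTNF and none fell (median 0.87), while Tnfsf11 itself did not pass the test. Il1b rose by 2.75 ± 0.25, the prostaglandin E2 receptors Ptger2 and Ptger4 by 2.37 ± 0.22 and 1.67 ± 0.17, and the TNF receptor Tnfrsf1b by 1.95 ± 0.19. In the oncostatin M and LIF branch Osmr (0.87 ± 0.10) and Lif (1.04 ± 0.19) rose. The receptors of parathyroid hormone and vitamin D, Pth1r (-0.26 ± 0.15) and Vdr (-0.17 ± 0.18), had limma adjusted p of 0.22 and 0.527, and Il6, Il11 and Ptgs2 were below the filter. Of 17 signals that raise OPG or oppose RANKL, 6 rose and 3 fell (median -0.01). Among all genes 16.5% were called higher and 19.6% lower, so the share that fell was not above the background. The oestrogen receptor Esr1, through which oestrogen raises OPG, fell by 1.16 on the log2 scale, Sema3a, a bone-protective semaphorin, by 1.01, and the Wnt target Axin2 by 0.54, a call lost without wild-type replicate 1 (-0.32; limma adjusted p = 0.168) or hTNF replicate 3 (0.0536). The receptors Il10ra (1.48 ± 0.23) and Ifnar1 (0.96 ± 0.13) rose, and β-catenin (Ctnnb1) differed by -0.04 ± 0.07 (limma adjusted p = 0.739).

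Other colony-stimulating factor receptors rose with Csf1r. In that list of 9, 6 rose and 2 fell (median 0.90): the GM-CSF receptor subunits Csf2ra, Csf2rb and Csf2rb2 rose by 2.55 ± 0.17, 2.20 ± 0.20 and 2.18 ± 0.19, and the mast cell and progenitor receptor Kit and its ligand Kitl fell by 1.04 and 1.0 on the log2 scale. Csf2 was below the filter and Csf3 differed by 0.09 ± 0.16 (limma adjusted p = 0.724). The relay that CSF1R shares with other myeloid receptors rose in 10 of 16 and fell in 1, Pik3r1 (median 0.69), with the kinase Fgr at 2.17 ± 0.19, the adaptor Dok2 at 2.11 ± 0.12, Pik3cg at 1.55 ± 0.20 and the phosphatase Inpp5d at 1.21 ± 0.16. The fall of Pik3r1 was lost when either wild-type array, hTNF replicate 1 or hTNF replicate 3 was left out, and with the replicate block (limma adjusted p = 0.0538). The list had no fall with the tested probe sets of each gene averaged, and 2 with quantile normalization, array weights or 2-group fits. Of 6 other binding partners, Sdc1, a syndecan that binds IL-34, rose by 1.31 ± 0.13, Lgr4, a further RANKL receptor that dampens RANK signalling, fell by 0.98 on the log2 scale, and Vwf, which binds OPG, fell by 0.56. In 7 other settings the count of falls in this list was 1; the call of Vwf was lost without wild-type replicate 2 (-0.29; limma adjusted p = 0.334), any 1 hTNF array or null replicate 3, and with the replicate block (0.0814). None of the 10 lists had a gene called by limma between the 2 transgenic groups, where 0.0162% of all genes were called.

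**Figure D5:**
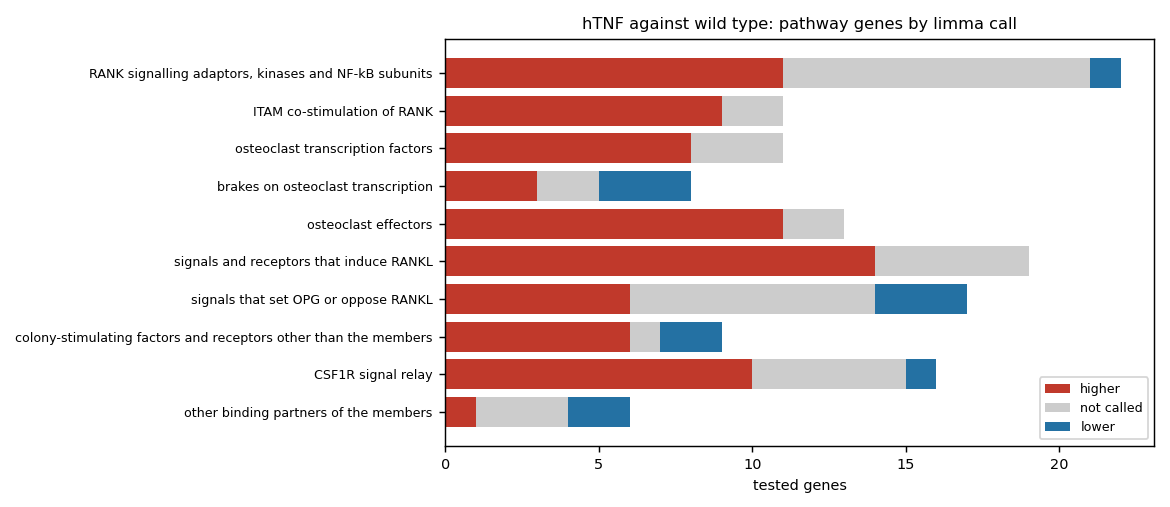
Number of tested genes in each of 10 pathway lists that were called higher (red), called lower (blue) or not called (grey) by limma in hTNF against wild type. Lists of ITAM co-stimulation, osteoclast transcription factors, osteoclast effectors and RANKL-inducing signals have no lower gene, while the brakes and the signals that set OPG or oppose RANKL have both.

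Between the 2 transgenic groups no member passed the test. The background was small, since limma called 2 of 24115 probe sets (0.00829%), and 1 of the 15 tested member probe sets had an unadjusted p under 0.05, as did 7.61% of all. Members did not overlap between these groups in 2 probe sets, Tnfsf11 1451944_a_at and Traf6 1421376_at, against 11.2% of all. The arrays labelled Sphk1 null read higher than every hTNF array in that Tnfsf11 probe set, by 0.46 ± 0.16 (1.37-fold; 95% interval 0.11 to 0.81; limma adjusted p = 0.611). The second Tnfsf11 probe set overlapped, since null replicate 2 lay below hTNF replicate 2 (0.61 ± 0.30; limma adjusted p = 0.67). The intervals for the brightest probe sets of the other genes were -0.46 to 0.10 for Tnfrsf11b, -0.16 to 0.51 for Tnfrsf11a, -0.28 to 0.13 for Csf1, -0.39 to 0.18 for Il34, -0.02 to 0.44 for Csf1r and -0.20 to 0.32 for Traf6. A 2-fold difference between the transgenic groups, 1 on the log2 scale, lies outside each of these intervals. The smallest adjusted p of any member under the alternative settings was 0.232, for Tnfsf11 without replicate 1 of the arrays labelled null.

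The arrays labelled Sphk1 null, set against the same 2 wild-type arrays, differed in Csf1r, Tnfrsf11b, Tnfrsf11a, Csf1, Il34 and Tnfsf11. In the fit of all 19 probe sets without a filter, 9 were higher and 2 lower, against 9.72% and 11.6% of 45037. In the filtered fit 10 were higher and 2 lower of 15 tested, and of all tested probe sets 39.0% were called, 18.7% higher and 20.2% lower. These 10 include both Tnfsf11 probe sets, which passed the filter only through 2 arrays labelled null. Complete separation from wild type was seen in 14 of the 15 and in 57.3% of all. Leaving out the 3 arrays with both sex-linked signals sets wild-type replicate 1, with the Y-linked signal, against null replicates 2 and 3, without it. Sex and group cannot be told apart in that setting. Csf1 1425155_x_at (0.48 ± 0.13; limma adjusted p = 0.0167) was then not called, nor was it without wild-type replicate 1 (adjusted p = 0.0821) or 2 (0.0749). Csf1r differed by 1.26 ± 0.11 in its brightest probe set and 2.12 ± 0.22 in 1423593_a_at, Tnfrsf11b by -1.24 ± 0.14, Tnfrsf11a by 0.99 ± 0.16, Csf1 by 0.78 ± 0.10 and Il34 by 0.75 ± 0.14, each with a limma adjusted p of at most 0.00248. The fourth Csf1 probe set, 1425154_a_at, differed by 0.28 ± 0.12 and did not pass (limma adjusted p = 0.0906).

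In the fit without the filter the brighter Tnfsf11 probe set was called here and not in hTNF. Both probe sets passed the filter only through 2 arrays labelled null, the group in which they read high. Tnfsf11 was higher by 0.58 ± 0.17 in its brighter probe set (1.49-fold; limma adjusted p = 0.0261, and 0.0312 without the filter) and by 0.95 ± 0.34 in the other (1.93-fold; 0.0499, and 0.0667 without the filter, where the call ended). All 3 arrays labelled null lay above both wild-type arrays in each, in the second by only 0.02 (6.45 against 6.43). Complete separation in either direction was seen in 57.3% of all tested probe sets. The call was lost in 7 of 18 settings for the first and in 13 of 18 for the second. Without wild-type replicate 1 the differences were 0.34 (adjusted p = 0.236) and 0.51 (0.373), without null replicate 1 they were 0.53 (0.0504) and 0.84 (0.116), and without null replicate 3 they were 0.56 (0.0774) and 0.81 (0.145). For the second probe set the call also ended without hTNF replicate 1 (0.0632) and 3 (0.0542). With the replicate number as a block the adjusted p was 0.0724 and 0.0779. The difference between the null-labelled and hTNF arrays, given above, was not called, so a difference of Tnfsf11 between the 2 transgenic groups is not shown.

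In their brightest probe sets Tnfrsf11a, Csf1, Il34 and Csf1r were lowest in wild type and Tnfrsf11b highest there, and hTNF and the arrays labelled null, the neighbours in each order, were not told apart. For Tnfsf11 the order of means was wild type (6.35 ± 0.34, SD, n = 2), hTNF (6.47 ± 0.08, n = 3) and labelled null (6.93 ± 0.12, n = 3), with wild type and hTNF overlapping. Traf6 means stayed within 8.45 to 8.68 over the 3 groups.

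The genes with the most similar profiles were found for the 5 members called in hTNF, by the root mean square difference of the centred log2 values over all 8 arrays, where 0 means the same profile. For Tnfrsf11b these were Ank1 (0.0797), Fam120c (0.0853) and Homer1 (0.0912), against a median of 0.53 over all genes. For Tnfrsf11a they were Bak1 (0.0646), Col14a1 (0.0648) and Mmp2 (0.0756), against 0.463. For Csf1 they were Morrbid (0.0669), Pqlc3 (0.0743) and Olfm1 (0.08), against 0.41, and for Csf1r Sh3bp1 (0.0692), Abca1 (0.0699) and Tapbp (0.0718), against 0.557. Zbtb42 (0.0409), Map3k14 (0.0601) and C130050O18Rik (0.0747) were nearest to Il34, against 0.412, and Map3k14 is also a member of the RANK signalling list. These are the nearest of 12362 genes and share arrays and group differences with the members, so the likeness is a description.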

How the data were processed

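Biotin-labelled cRNA from total RNA of 8 ankle joints was hybridised to single-colour arrays, per the labels' protocols. The values are log2 expression of 45101 probe sets in a table the authors deposited. The submitters' processing notes name the programs Expression Console (Affymetrix), MAS5 and RMA, without saying which made the values. Array medians lie between 6.84 and 6.89, so differences in total RNA are not visible. Names come from the platform annotation, updated through a GRCm38.p6 gene table; promoters are RefSeq's of that build, and the form of the NF-κB motif was settled after matches had been seen.

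The 3 group means were estimated in a single limma fit (version 3.58.1, R 4.3.3) over the 8 arrays, with an intensity trend and 5 residual degrees of freedom, after leaving out 64 control probe sets and those not above 6.87 on at least 2 arrays. The 3 contrasts share arrays. Calls use a Benjamini-Hochberg adjusted p under 0.05 over 24115 probe sets, and a gene is represented by its brightest tested probe set. The fit was tested on simulated data. The number of arrays limits the precision: the median SE of a difference was 0.15, 0.13 and 0.15. Alternatives were quantile normalization, 2 other filters, an offset of 32 before log2, no trend, array weights, 2-group fits, a replicate block, skin and marrow covariates and leaving out each array; leaving out the arrays with both sex-linked signals was chosen after seeing the data.

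The members, gene lists and tests were chosen with earlier results of these data known. Named are all member probe sets; from each list the 4 called genes that changed most, or failing any call the 2 with the lowest p; and the 3 genes most like each called member. Other genes of the lists named in the text were chosen after their values were seen. Listed genes that the annotation does not assign are not analysed here.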

Additional observations from a re-analysis of the deposited data

How the results depend on the processing

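Of the member probe sets' results under the alternatives, 800 kept their direction, or went to 0, and their side of the threshold, 31 lost the call, 1 gained it and 8 changed sign, all of these 8 in differences that were not called. The number of probe sets called for hTNF against wild type was 7965 and ranged from 4695 to 9313 when 1 array was left out, lowest without wild-type replicate 1. Between the transgenic groups it was 2, and ranged from 0 to 3 without 1 array, with 789 to 4890 at an unadjusted limma p under 0.05. It was 6 with quantile normalization; 1 with the filter on all 8 arrays, with array weights and with the neutrophil precursor covariate; and 0 without the arrays with both sex-linked signals (3770 unadjusted). That last setting gave -0.055 for Csf1 1448914_a_at, 0 for Csf1r 1419873_s_at and -0.005 for Traf6 1435350_at between the transgenic groups. Leaving out 1 array, these ranged from -0.072 to 0.108 for that Csf1 probe set and -0.038 to 0.127 for that Traf6 probe set. Against wild type in hTNF, leave-one-out values ranged from -0.12 to 0.36 and -0.1 to 0.78 for Tnfsf11 and from -0.003 to 0.217 for Traf6 1421376_at. The cause was not tested. The filter on all 8 arrays left 10 member probe sets, none of Tnfsf11, Tnfrsf11b or Tnfrsf11a, and called Traf6 1421376_at in the arrays labelled null against wild type (limma adjusted p = 0.0499).

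The RANKL to OPG balance moved by more than 0.258, its pooled SD within groups, though by less than the 0.75 between the wild-type arrays, with all probe sets averaged, to 1.53 in hTNF and 2.28 on the arrays labelled null, and with the offset to 1.49 on the latter. Same-numbered arrays of different groups had deviations correlated at -0.167 to 0.273, and not every array matched its own number best. The wild-type arrays deviate from their mean by equal and opposite amounts, so their correlations cannot decide on pairing. Between the transgenic groups the same-numbered correlations were 0.228, 0.0545 and 0.251, and the others ranged from -0.485 to 0.37. The skin gene mean was 11.35, 6.47 and 8.61 over the hTNF arrays by number, and 9.93, 6.65 and 9.08 over those labelled null. Whether the numbers pair the arrays is thus not known. With the replicate block 6515, 2 and 7770 probe sets were called in the 3 comparisons.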
